A study of Homo sapiens with 6 samples.

Results

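The genes described are 10 components and regulators of mTOR complex 1 (mTORC1), a protein kinase complex that couples nutrients and growth signals to cell growth: MTOR, RPTOR, DEPTOR, RHEB, TSC1, TSC2, DDIT4, RRAGC, RRAGD and FLCN. They were chosen by name, as the kinase complex, its brakes and its nutrient-sensing GTPases, from the 60728 genes of the count table, and all 10 were found there and passed the filter on low counts. RNA-seq was done on JJN3, a human multiple myeloma cell line, in 3 groups of 2 libraries: a control group with the vehicle DMSO, a group treated with WNK463 for 2 h and another treated with it for 6 h. WNK463 blocks the WNK family of kinases, regulators of ion transport. The sample protocol gives its dose as 5 µM and the series design as 1 µM. How long the DMSO cells were kept before collection is not stated on their own labels. Their columns in the count table are named A0 and B0, and no DMSO group is given for each time. Time in culture and treatment therefore cannot be told apart. The labels name no separate cultures, so every p-value measures only the spread between these libraries, which may be technical. All the libraries come from a single cell line, which limits them as a model of myeloma.

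As background, mTORC1 is built around the kinase MTOR and the scaffold RPTOR (Raptor), which brings substrates to it, and DEPTOR binds MTOR and inhibits it. Its activator RHEB is a small GTPase on the lysosome surface, and the TSC1–TSC2 complex switches RHEB off. DDIT4 (REDD1), a stress-induced protein, restrains mTORC1 through the TSC complex. When amino acids are plentiful, Rag GTPases, pairs of RRAGA or RRAGB with RRAGC or RRAGD, bring mTORC1 to the lysosome, and FLCN (folliculin) acts with FNIP1 or FNIP2 to set RRAGC and RRAGD in their active form. RRAGC, RRAGD and FLCN are known targets of TFEB and TFE3, transcription factors of lysosomal genes that mTORC1 keeps out of the nucleus. In myeloma, DEPTOR is known for high expression in tumours with translocations of MAF, a class to which JJN3 belongs.

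Promoters are shown for 3 members. DDIT4 was called higher at both times and RRAGC at 6 h. TSC2 was called in no comparison, like several other members, and is shown because it carries the same lysosomal-gene motif as RRAGC. RefSeq promoter windows (GRCh38.p14, 250 bases before to 50 after the start site) were found for 8 of the 10 members, and not for RRAGD or DEPTOR. The printed stretches are the 250 bases before the start site, 5′ to 3′ on the gene's strand, with motif matches in capitals. They lie at chr1:38859773-38860022 on the minus strand (RRAGC), chr16:2047735-2047984 on the plus strand (TSC2, the first of 2 windows listed) and chr10:72273674-72273923 on the plus strand (DDIT4).
RRAGC: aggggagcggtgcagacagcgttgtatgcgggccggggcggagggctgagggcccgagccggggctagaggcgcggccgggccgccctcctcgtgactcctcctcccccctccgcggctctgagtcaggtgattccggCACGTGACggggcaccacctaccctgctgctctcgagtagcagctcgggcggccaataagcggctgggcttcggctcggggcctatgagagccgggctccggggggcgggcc
TSC2: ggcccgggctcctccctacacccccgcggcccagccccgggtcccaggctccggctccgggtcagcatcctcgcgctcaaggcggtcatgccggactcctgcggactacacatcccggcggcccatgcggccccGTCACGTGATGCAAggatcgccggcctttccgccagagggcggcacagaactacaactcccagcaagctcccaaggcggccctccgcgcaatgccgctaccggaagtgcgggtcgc
DDIT4: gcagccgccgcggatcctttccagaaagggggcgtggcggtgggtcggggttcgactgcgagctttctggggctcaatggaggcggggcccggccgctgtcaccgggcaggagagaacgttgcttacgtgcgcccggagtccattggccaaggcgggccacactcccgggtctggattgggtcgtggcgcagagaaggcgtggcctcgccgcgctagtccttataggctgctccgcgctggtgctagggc
The capitals in RRAGC are the CLEAR element GTCACGTG, the site of TFEB and TFE3, read on the opposite strand as CACGTGAC from position -112 relative to the start site. TSC2 has GTCACGTG from position -116, and its last letters run on into TGATGCAA, a match from position -110 to the ATF4 element TGATGNAA, so the motifs overlap. Both strands of the whole 300-base windows were searched. Over 27305 genes with a window, 2.53% held the CLEAR element, 7.44% the E-box CACGTG that lies inside it, 3.67% the ATF4 element and 3.41% the FOXO element GTAAACA. Among the 8 members matched, 2 held the CLEAR element and with it the E-box, 1 the ATF4 element and 0 the FOXO element. These are matches of letters and not sites shown to be bound.

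Fragments counted in genes came to between 18013790 and 24002291 per library, where 3 counts are 0.125 to 0.167 CPM (counts scaled to library size). The replicates of each group differed by more than sampling noise, those of DMSO the most. Their chi-square per degree of freedom was 8.41 with DMSO, 4.15 at 2 h and 3.57 at 6 h, while the fit gave all groups a shared spread. Of all 15548 genes tested, 36.6% were called at 6 h against DMSO (2795 higher, 2898 lower), 17.0% at 2 h against DMSO (1349 higher, 1293 lower) and 24.3% at 6 h against 2 h (1731 higher, 2041 lower), a call being an adjusted p under 0.05 in edgeR's quasi-likelihood test. The comparisons share libraries and are not independent of each other. Plasma cell genes were expressed in every library, with SDC1 at 112 to 148 TPM (counts scaled to exonic length and library size) and IRF4 at 346 to 441. MAF, a marker of MAF-translocated myeloma, had 280.2 to 327 TPM. CD38, another plasma cell marker, stood lower at 7.98 to 11.3 TPM. The B cell marker MS4A1 did not exceed 0.198 TPM, the T cell gene CD3D had no count and the fibroblast gene COL1A1 did not exceed 0.172 TPM. Of the epithelial markers KRT8 stayed at or below 0.395 TPM and KRT18 at 5.93 to 11.4, while EPCAM had 134 to 168 TPM, and their part in the results was not tested.

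At 6 h against DMSO 3 of the 10 members were called higher and 0 lower, beside 36.6% of all genes called in either direction. The 3 were DDIT4, RRAGC and RHEB. At 2 h against DMSO only DDIT4 was called, higher, beside 17.0% of all genes. At 6 h against 2 h FLCN was called higher and DDIT4 and RRAGD lower, beside 24.3% of all genes. These shares of the members stood below or near those of all genes, so the counts are no result about the members as a group. The median log2 change over the members was 0.09 at 6 h and 0.02 at 2 h, against -0.0050 and -0.0049 over all genes tested.

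**Figure D1:**
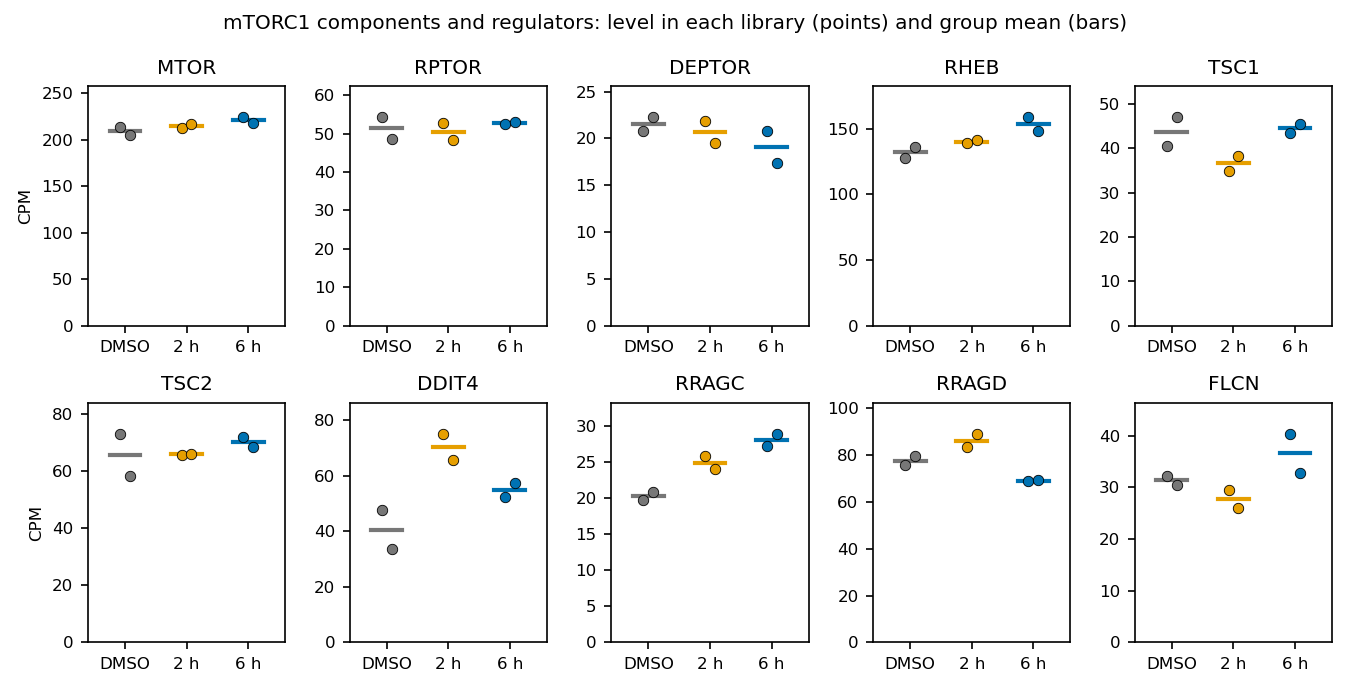
Level of each of the 10 members in every library, in TMM-scaled CPM, with the DMSO, 2 h and 6 h groups from left to right, points for libraries and short bars for group means. DDIT4 is highest at 2 h (75.0 and 65.6 CPM), RRAGC is highest at 6 h (27.2 and 28.9 CPM), and the MTOR and RPTOR points stay close together over all 6 libraries.

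MTOR, RPTOR and DEPTOR showed no called difference from DMSO at either time. MTOR, the catalytic subunit (1:11106535-11262551, minus strand, hg38), had 214 and 206 CPM with DMSO, 213 and 217 after 2 h of WNK463, and 224 and 219 after 6 h. Its log2 change at 6 h was 0.08 with a 95% interval of -0.05 to 0.21, and at 2 h 0.04 with an interval of -0.09 to 0.17. RPTOR, the scaffold (17:80544819-80966371, plus strand), kept to 48.3 to 54.2 CPM over the 6 libraries, and its log2 change at 6 h was 0.04 (interval -0.16 to 0.24). The MTOR and RPTOR levels of the treated libraries stayed within or close to the spread of the DMSO libraries. DEPTOR, the inhibitor in the complex (8:119873717-120050918, plus strand), had 20.8 and 22.3 CPM with DMSO, 21.9 and 19.5 at 2 h, and 20.8 and 17.3 at 6 h. Its 6 h log2 change of -0.18 (SE 0.140, adjusted p = 0.351) had an interval of -0.46 to 0.11. In a bulk RNA sample, fewer cells that express a gene and less RNA per cell cannot be told apart.

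RHEB, the direct activator of the kinase (7:151466012-151520120, minus strand), was modestly higher at 6 h. It had 128 and 136 CPM with DMSO, 139.5 and 141 at 2 h, and 159 and 148 at 6 h. The 3 groups did not overlap, and the 2 h libraries lay between the others. At 6 h the level was 1.16-fold that of DMSO (log2 0.22, SE 0.0726, adjusted p = 0.0163), while the 2 h change of 0.09 had an adjusted p of 0.468. The 6 h call was lost without DMSO replicate 1 (log2 0.17, adjusted p = 0.0520) and without 6 h replicate 1 (0.17, adjusted p = 0.253).

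TSC1 and TSC2, the brake on RHEB, were called in no comparison. TSC1, the stabilising subunit (9:132891348-132946874, minus strand), had 40.5 and 46.9 CPM with DMSO, 34.9 and 38.3 at 2 h, and 43.5 and 45.4 at 6 h. The 2 h libraries were the lowest and lay apart from both other groups, with a log2 change against DMSO of -0.26 (SE 0.108, adjusted p = 0.0976). Without DMSO replicate 1 that change was -0.36 with an adjusted p of 0.0242. At 6 h against 2 h TSC1 had a log2 change of 0.28 with an adjusted p of 0.0527, and it passed the threshold under 8 of 16 alternative settings (adjusted p from 0.0142 to 0.342). TSC2, the subunit that acts on RHEB (16:2047967-2089491, plus strand), had 73.0 and 58.1 CPM with DMSO, a gap that spans its 2 h libraries (65.49 and 66.05) and its 6 h libraries (71.8 and 68.3). Its 6 h log2 change was 0.10 (interval -0.09 to 0.29, adjusted p = 0.457), or 0.27 with an adjusted p of 0.0253 without DMSO replicate 1.

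DDIT4, the stress-induced brake (10:72273924-72276036, plus strand), changed most among the members at 2 h and was the only member called in all 3 comparisons. Its libraries had 47.5 and 33.6 CPM with DMSO, 75.0 and 65.6 at 2 h, and 52.1 and 57.2 at 6 h. Every treated library lay above both DMSO libraries, and the 6 h libraries lay below the 2 h libraries. At 2 h it was 1.74-fold the DMSO level (log2 0.80, SE 0.111, adjusted p = 4.07e-07), a change larger in size than that of 86.7% of the genes tested, and the call held under all 16 alternatives with values of 0.57 to 1.06. At 6 h it was 1.35-fold the DMSO level (log2 0.44, SE 0.112, adjusted p = 0.00167), and at 6 h against 2 h its log2 change was -0.36 (SE 0.109, adjusted p = 0.0110).

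Single libraries moved the DDIT4 values, the DMSO libraries above all. Without DMSO replicate 2, the lower of the pair, the 6 h log2 change was 0.20 with an adjusted p of 0.148, and without DMSO replicate 1 it was 0.70 with an adjusted p of 1.75e-07. The fall at 6 h against 2 h was lost without 2 h replicate 1 (adjusted p = 0.164) and without 6 h replicate 1 (adjusted p = 0.149). An antisense gene, named DDIT4-AS1 in GENCODE 29, covers 847 bases or 41.2% of the exonic length of DDIT4. Counting ignored strand and left out fragments that overlap more than 1 gene, so fragments lying in that stretch went to neither gene, the antisense gene had 0 counts in every library, and the DDIT4 counts rest on the remaining exonic bases. DDIT4-AS1 and DDIT4 therefore cannot be told apart where they overlap.

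RRAGC and RRAGD are alternative partners of RRAGA and RRAGB in the Rag pair, and RRAGC was higher at 6 h than with DMSO, while RRAGD was lower at 6 h than at 2 h. RRAGC (1:38838198-38859772, minus strand) had 19.7 and 20.9 CPM with DMSO, 25.8 and 24.1 at 2 h, and 27.2 and 28.9 at 6 h. The groups did not overlap and stood in the order of time. At 6 h it was 1.38-fold the DMSO level (log2 0.47, SE 0.128, adjusted p = 0.00321), and at 2 h the log2 change was 0.30 with an adjusted p of 0.111. The 6 h value ranged from 0.42 to 0.51 over 16 alternatives, and the call was lost in 1 of them, without 6 h replicate 2 (0.42, adjusted p = 0.0529). A second gene on the same strand, listed with 0 counts, covers 23.1% of the exonic length of RRAGC, where fragments were again assigned to neither.

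RRAGD (6:89364616-89412273, minus strand) had 75.7 and 79.5 CPM with DMSO, 83.3 and 89.1 at 2 h, and 68.8 and 69.3 at 6 h. Here the 2 h libraries were the highest and the 6 h libraries the lowest, with no overlap between groups. Only 6 h against 2 h was called, with a log2 change of -0.32 (SE 0.0856, adjusted p = 0.00382). Against DMSO the log2 changes were -0.17 at 6 h (interval -0.34 to 0.00, adjusted p = 0.125) and 0.15 at 2 h (adjusted p = 0.239). The call at 6 h against 2 h was lost without 2 h replicate 2 (adjusted p = 0.107) and without 6 h replicate 1 (adjusted p = 0.0624).

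Set side by side per length, RRAGC made up a larger part of the sum of RRAGC and RRAGD at 6 h. Its share of the summed TPM was 20.6% and 20.7% with DMSO, 23.6% and 21.2% at 2 h, and 28.3% and 29.4% at 6 h. Both 6 h libraries lay above all the others, although 2 libraries against 2 cannot reach an exact two-sided permutation p below 0.333. The annotated exonic lengths of the genes are near each other, at 5116 and 5095 bases. However, 23.1% of that of RRAGC and 0% of that of RRAGD lie under another gene, where no fragment was counted. The RRAGC share is therefore likely too low in every group. RRAGA, the partner on the other side of the pair, held 91.7% and 93.1% of the sum of RRAGA and RRAGB at 6 h, against 91.6% and 92.6% with DMSO, so the corresponding share on that side overlapped between the groups.

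**Figure D2:**
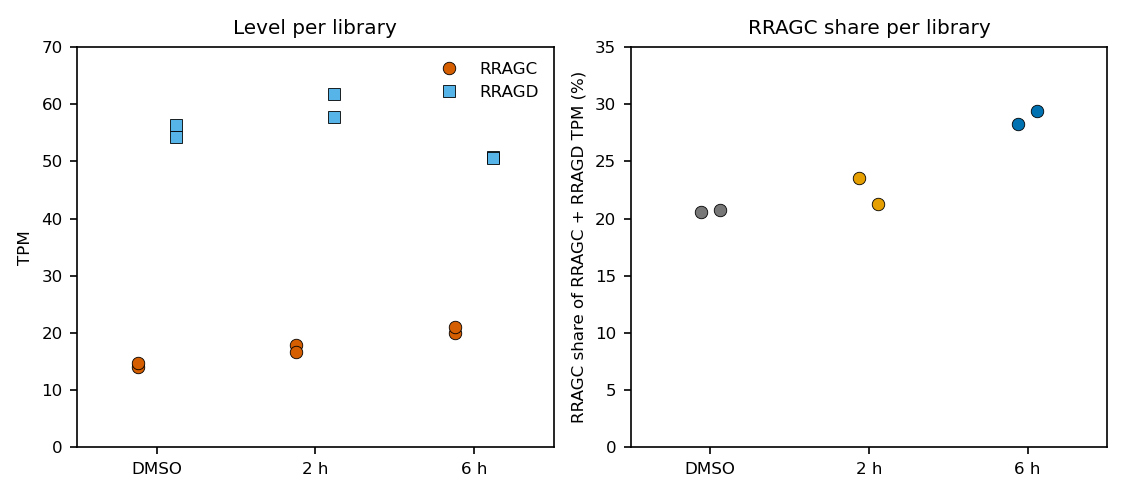
The left panel plots the TPM of RRAGC (circles) and RRAGD (squares) and the right panel RRAGC as a percentage of their summed TPM, 1 point per library, with the DMSO, 2 h and 6 h groups from left to right. In the right panel the 6 h libraries, at 28.3% and 29.4%, lie above the 2 h libraries (23.6% and 21.2%) and the DMSO libraries (20.6% and 20.7%).

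FLCN, which with its FNIP partners activates RRAGC and RRAGD (17:17212212-17237188, minus strand), had 32.2 and 30.5 CPM with DMSO, 29.5 and 26.0 at 2 h, and 40.4 and 32.9 at 6 h. The 2 h libraries were below the DMSO libraries and the 6 h libraries above them, with 6 h replicate 1 well above the rest. At 6 h FLCN was 1.32-fold its 2 h level (log2 0.40, SE 0.121, adjusted p = 0.01004). That call was lost without 6 h replicate 1 (0.25, adjusted p = 0.332) and without 2 h replicate 2 (adjusted p = 0.176). Against DMSO the log2 changes were 0.22 at 6 h (interval -0.02 to 0.47, adjusted p = 0.148) and -0.18 at 2 h (adjusted p = 0.345). Another gene covers 11.9% of its exonic length.

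**Figure D3:**
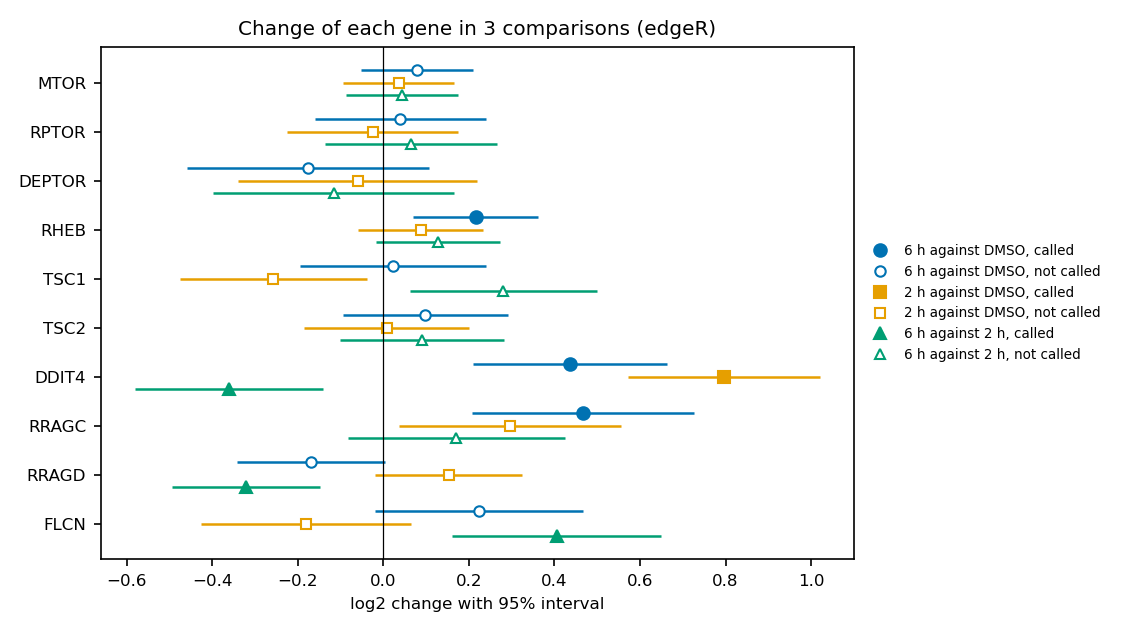
Log2 change of each member at 6 h against DMSO, 2 h against DMSO and 6 h against 2 h, with lines for the 95% interval and filled marks for called changes. DDIT4 at 2 h stands farthest from 0 at 0.80, and most other intervals cross 0.

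**Figure D4:**
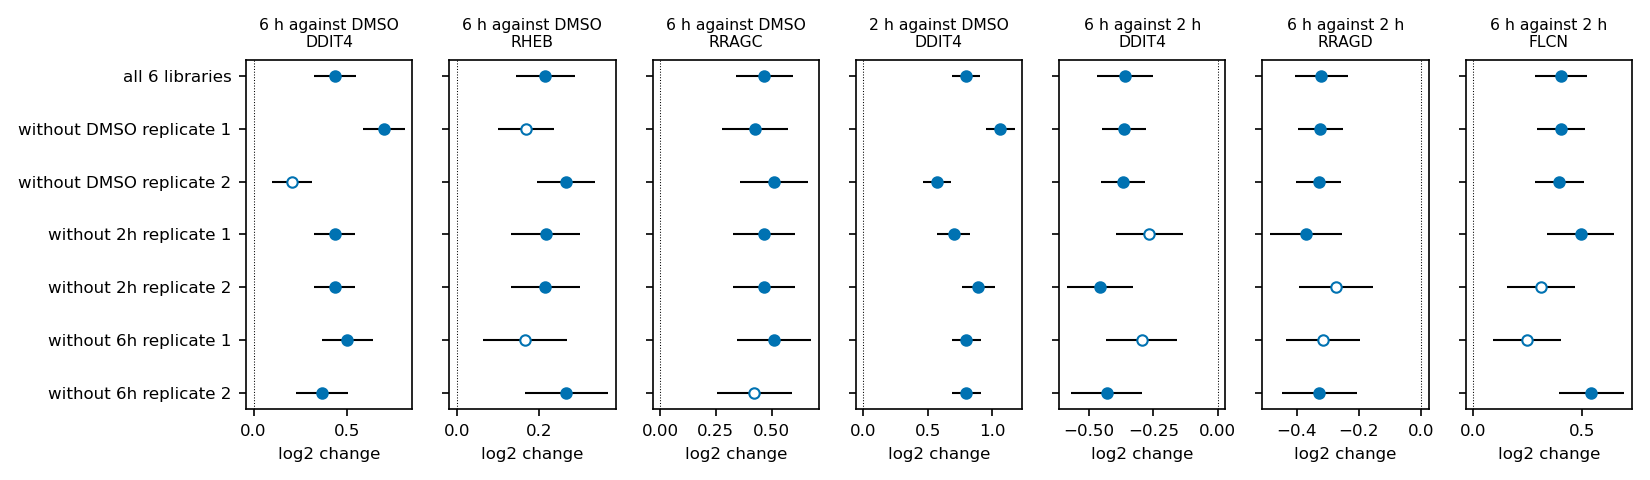
Log2 change of the members called in a comparison, recomputed with each of the 6 libraries left out in turn, 1 point per fit, with lines of 1 SE to each side and open points for calls lost. The DDIT4 value at 6 h against DMSO spreads from 0.20 to 0.70 with a DMSO library left out, whereas that of RRAGC stays between 0.42 and 0.51.

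Per length, the members spanned RHEB at a mean of 146 TPM over the 6 libraries to TSC1 at 8.60 TPM. The order was RHEB (132 to 169 TPM), DDIT4 (59.2 to 129), MTOR (61.2 to 69.3), RRAGD (50.5 to 61.8), DEPTOR (24.5 to 30.6), RPTOR (16.6 to 19.2), RRAGC (14.1 to 21.0), TSC2 (10.98 to 14.11), FLCN (9.39 to 15.5) and TSC1 (7.01 to 9.64). On the annotated lengths, RHEB, RRAGD and DEPTOR were each separated from the next gene down, and the ranges of the other neighbours overlapped. However, 41.2% of the exonic length of DDIT4 and 0% of that of RHEB lie under another gene. The DDIT4 level is therefore likely too low, and its place below RHEB may not hold. DDIT4 had the widest range, with its highest library at 2.18 times its lowest, and MTOR the narrowest at 1.13 times. RPTOR formed 32.92% and 34.03% of the summed TPM of RPTOR and RICTOR, the scaffold of the other mTOR complex, at 6 h, against 43.61% and 38.19% with DMSO. These levels depend on the annotated exonic length, which is long for TSC1 and TSC2 and holds stretches where no fragment could be counted in DDIT4 and RRAGC.

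For RRAGC and DDIT4, the members with the largest change in size at 6 h and at 2 h, the genes with the nearest pattern over the 6 libraries were sought among 10611 genes, by the Euclidean distance between log2 CPM profiles centred on their mean. RRAGC lay nearest to TMEM214 (distance 0.0674), ARFIP1 (0.0685) and PAIP1 (0.0798). DDIT4 lay nearest to RHPN1-AS1 (0.173), JUN (0.181) and LINGO3 (0.204). The log2 changes at 2 h and 6 h were 0.77 and 0.41 for RHPN1-AS1 and 0.90 and 0.61 for LINGO3. JUN, an immediate early transcription factor, had 0.80 and 0.30, beside 0.80 and 0.44 for DDIT4. Some gene is nearest in any such search, and shared regulation was not tested.

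The other genes of the pathway were taken as lists by role. Of 8 tested partners and assembly factors of the mTOR complexes, 1 rose and 3 fell at 6 h, beside 36.6% of all genes called, with a median log2 change of -0.19. RICTOR, the scaffold of mTORC2, rose to 138 ± 4.19 CPM at 6 h, against 97.7 ± 7.89 with DMSO (SD, n = 2 each, log2 0.50, adjusted p = 1.05e-06). TELO2, which helps assemble MTOR and related kinases, fell to 28.9 ± 0.726 CPM at 6 h, against 55.04 ± 5.67 with DMSO (SD, n = 2 each, log2 -0.93, adjusted p = 1.40e-09). MLST8, a subunit of both complexes, had a log2 change of -0.30 (adjusted p = 0.00835), which was -0.13 without DMSO replicate 1 (adjusted p = 0.296) and -0.25 without 6 h replicate 1 (adjusted p = 0.132). Without 6 h replicate 1 the list had 2 calls.

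Of 10 tested partners of the Rag GTPases and FLCN, 2 rose and 1 fell at 6 h (30.0% called, beside 36.6% of all genes), with a median of 0.12. The risers were both FLCN partners: FNIP1 by 0.60 on the log2 scale (adjusted p = 4.42e-05) and FNIP2 by 0.41 (adjusted p = 0.000449). LAMTOR4, a subunit of the Ragulator that anchors the Rags, was called lower (-0.37, adjusted p = 0.0408), but its replicates overlapped between the groups and the call was lost under 7 alternatives, among them without DMSO replicate 1 (-0.11, adjusted p = 0.678) and without 6 h replicate 2 (-0.26, adjusted p = 0.310). Of 12 tested subunits of GATOR1, GATOR2 and KICSTOR, which relay amino acid status to the Rags, 0 rose and 5 fell at 6 h, with a median of -0.17. That is 41.7% of the list called, beside 36.6% of all genes called and 18.6% lower, and without DMSO replicate 1 the calls were 2 higher and 2 lower. SEH1L and MIOS, both of GATOR2, fell by 0.46 and 0.35 on the log2 scale (adjusted p = 4.17e-07 and 0.00108), MIOS being just past the threshold without 6 h replicate 1 (-0.30, adjusted p = 0.0501). ITFG2, of KICSTOR, had -0.43 (adjusted p = 0.0206), which was lost without DMSO replicate 1 (-0.39, adjusted p = 0.0829) and without 6 h replicate 1 (-0.32, adjusted p = 0.234). The count of calls in the list was 1 without 6 h replicate 1 and 3 without 6 h replicate 2.

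The amino acid sensors held the highest median log2 change of the 8 lists, 0.43 at 6 h and 0.24 at 2 h, with 4 of 7 higher and 1 lower at 6 h, beside 18.0% of all genes higher and 18.6% lower. SESN2, a leucine sensor that is also induced by stress, had 42.5 ± 1.18 CPM at 2 h, against 20.8 ± 7.20 with DMSO (SD, n = 2 each, log2 1.04, adjusted p = 1.16e-07), and a 6 h log2 change of 0.78. Like DDIT4, SESN2 was higher in DMSO replicate 1 than in replicate 2, and its 6 h change was 1.17 without replicate 1 and 0.45 without replicate 2, called in both. SESN3, its relative, rose by 0.74 at 6 h (adjusted p = 1.76e-10). CASTOR2, related to the arginine sensor CASTOR1, had a log2 change of 0.43, but close copies of the gene exist in the genome, and whether they affected its count was not tested. SAR1A, related to the leucine sensor SAR1B, had a log2 change of -0.61 at 2 h (adjusted p = 1.74e-06).

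Of 24 tested growth factor and energy inputs to the TSC complex, 9 rose and 3 fell at 6 h (median 0.15), and 7 rose and 2 fell at 2 h (median 0.10), beside 36.6% of all genes called at 6 h and 17.0% at 2 h. At 2 h the count was 2 (2 higher, 0 lower) without 2 h replicate 2. GSK3B, a kinase that phosphorylates TSC2, rose by 0.60 at 6 h (adjusted p = 3.07e-07). DDIT4L, the DDIT4 relative REDD2, had 1 and 6 counts with DMSO, 10 and 45 at 2 h, and 37 and 48 at 6 h. Every treated library lay above both DMSO libraries, but the 2 h libraries were far apart. The ratio of the summed levels to DMSO was 7.23 at 2 h (95% counting interval 3.28 to 18.8) and 12.5 at 6 h (5.81 to 32.0), and the intervals cover counting error only. At 2 h the ratio was 3.001 without 2 h replicate 2 (1.03 to 9.29) and 4.57 without DMSO replicate 1 (1.97 to 13.0). At 6 h it was 7.89 without DMSO replicate 1 (3.48 to 22.1). Without DMSO replicate 2 only 1 count remained in DMSO, and the ratios were 23.2 at 2 h (3.99 to 933) and 40.1 at 6 h (6.999 to 1601). RHEBL1, the close relative of RHEB, was singled out after its values were seen, and had 6.29 ± 1.10 CPM at 6 h, against 2.97 ± 0.658 with DMSO (SD, n = 2 each, log2 1.09, adjusted p = 0.00132).

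Among 18 tested substrates and effectors of mTORC1, 3 rose and 4 fell at 6 h (median -0.11), or 38.9% called, near the 36.6% of all genes. The list had 11 calls without DMSO replicate 1 and 4 without 6 h replicate 1. EIF4EBP1, the translation repressor that mTORC1 phosphorylates, fell by 0.62 at 6 h (adjusted p = 2.20e-07), or by 0.41 without DMSO replicate 1. LARP1, which binds messages of ribosomal proteins, fell by 0.49 (adjusted p = 4.63e-10). PDCD4, a translation inhibitor, fell by 0.44 (adjusted p = 2.38e-06). TFEB rose by 0.65 at 2 h (adjusted p = 0.000585). ULK1, the autophagy kinase, was singled out after its values were seen, with a log2 change of 0.65 at 6 h (adjusted p = 8.86e-06).

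Of 17 tested lysosomal and autophagy genes reported as TFEB or TFE3 targets, 9 rose and 0 fell at 6 h (median 0.22), beside 18.0% of all genes higher. Among the 9 was PPARGC1A, singled out after its values were seen, with only 2 and 0 counts with DMSO and 11 and 12 at 6 h. At 2 h 5 rose and 1 fell (median 0.19), beside 17.0% of all genes called and 8.68% higher. The list was not tested as a set. CTSB, a lysosomal protease, had 238 ± 2.20 CPM at 6 h, against 117 ± 1.87 with DMSO (SD, n = 2 each, 2.03-fold, log2 1.02, adjusted p = 2.53e-16). LAMP2, a lysosomal membrane protein, rose by 0.63 and SQSTM1, an autophagy receptor, by 0.56 (adjusted p = 2.43e-10 and 6.49e-13). Of 17 tested subunits of the V-ATPase, the lysosomal proton pump on which the Rags depend, 6 rose and 2 fell at 6 h (median 0.13), or 47.1% called beside 36.6% of all genes, and the count was 4 without 6 h replicate 1 and 5 without 6 h replicate 2. ATP6V0A1 rose by 0.32 (adjusted p = 0.00154), and TCIRG1, an alternative to ATP6V0A1 at the same position, fell by 0.33 (adjusted p = 0.00134). ATP6V1E1 rose by 0.35 (adjusted p = 0.00164), but only by 0.26 without 6 h replicate 2.

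At 2 h fewer of these genes were called, beside 17.0% of all genes. There were 1 higher and 1 lower of 8 complex partners, 1 higher and 0 lower of 10 Rag and FLCN partners, 1 higher and 2 lower of 12 GATOR and KICSTOR subunits, 3 higher and 1 lower of 7 amino acid sensors, 2 higher and 2 lower of 18 substrates and effectors, and 2 higher and 0 lower of 17 V-ATPase subunits. With 1 library left out, the counts of called genes ranged from 1 to 2 of the complex partners, 0 to 2 of the Rag and FLCN partners, 1 to 3 of the GATOR and KICSTOR subunits, 3 to 7 of the substrates and effectors and 1 to 4 of the V-ATPase subunits. The fewest came without 2 h replicate 2 in each of these lists, shared with other libraries in some, and the most without DMSO replicate 2, again shared in some. RICTOR (0.38), SESN3 (0.33), LAMP2 (0.38), CTSB (0.37), SQSTM1 (0.25) and the V-ATPase subunit ATP6V0A2 (0.34) were higher at 2 h, and PDCD4 (-0.35) and LPIN1, a lipid phosphatase (-0.29), lower, with adjusted p of at most 0.00223, and these calls held with each library left out.

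Other calls at 2 h rested on single libraries. TELO2 (-0.35, adjusted p = 0.0166) and FNIP1 (0.38, adjusted p = 0.0185) lost theirs without DMSO replicate 1 (-0.24 and 0.32, adjusted p = 0.178 and 0.0735) and without 2 h replicate 2 (-0.34 and 0.23, adjusted p = 0.124 and 0.386), and TELO2 also without 2 h replicate 1 (-0.35, adjusted p = 0.0950). KICS2, of KICSTOR, (0.44, adjusted p = 0.0158) lost it without DMSO replicate 1 (0.36, adjusted p = 0.106) and without 2 h replicate 2 (0.34, adjusted p = 0.238). ITFG2 (-0.55, adjusted p = 0.00735) lost it without 2 h replicate 1 (-0.52, adjusted p = 0.0595). GSK3B (0.37, adjusted p = 0.00193) lost it without DMSO replicate 1 (0.21, adjusted p = 0.0634). The V-ATPase subunit ATP6V1A (0.22, adjusted p = 0.0295) lost its call under 7 of 16 alternatives, with 0.12 and an adjusted p of 0.237 without DMSO replicate 1.

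**Figure D5:**
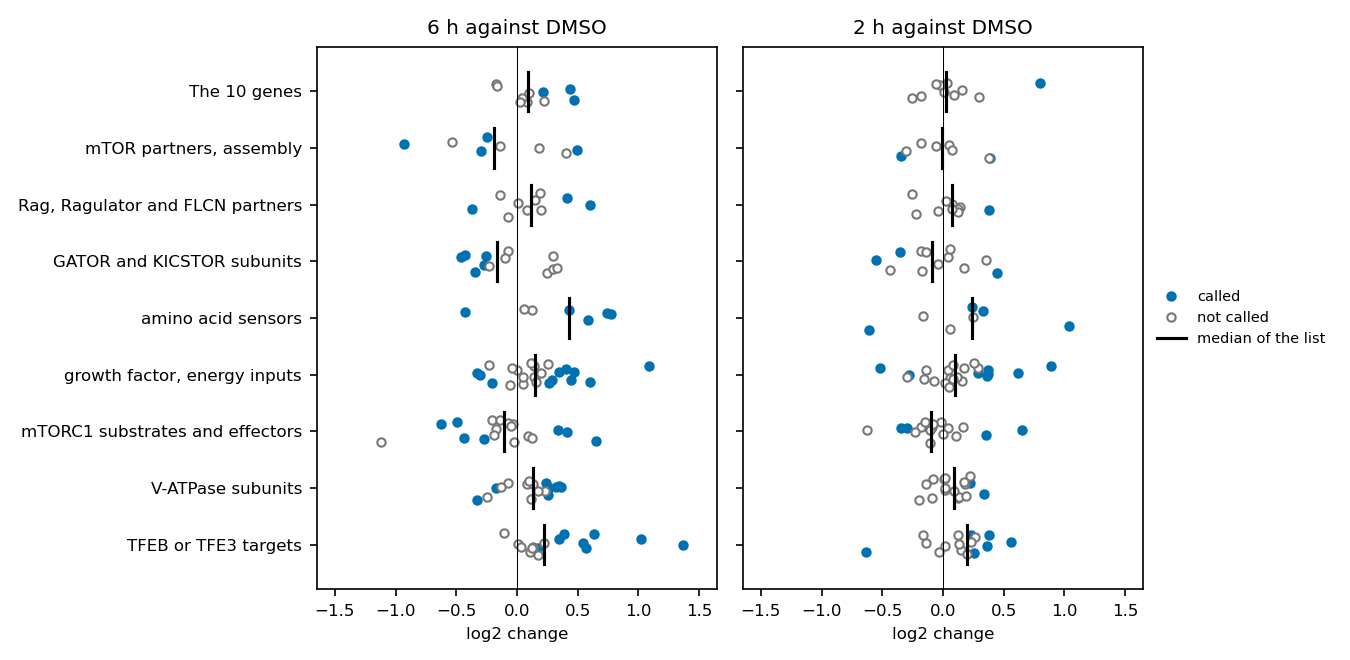
Log2 change of the 10 members and of every tested gene of the 8 pathway lists at 6 h (left) and 2 h (right) against DMSO, 1 point per gene, filled where called, with the median of each list as a bar. The amino acid sensors have the highest medians, 0.43 at 6 h and 0.24 at 2 h, and 4 points beyond 1.6 log2 units lie outside the axis.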

How the data were processed

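The authors' deposited counts are fragments per gene of paired reads aligned to hg38, made with featureCounts 2.0.0 on GENCODE 34 without regard to strand and at a mapping quality of at least 20, per the submitters' processing notes and the file headers, which also name Trimmomatic and STAR, without a version. The record of 1 gene, broken over 3 lines, was rejoined. Exon overlaps and exonic lengths came from the deposited table, and TPM was computed from its counts and lengths.

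The members, the 8 pathway lists and the rules were chosen with earlier results of these data known. Counts of all 6 libraries were fitted with the quasi-likelihood method of edgeR 4.0.16 (R 4.3.3), with a mean per group, TMM factors and filterByExpr, which left 15548 genes. The biological coefficient of variation was 7.72%. P-values were adjusted over all genes by Benjamini-Hochberg, and calls were made at 0.05. The SE was derived from the F statistic and the 95% interval from t with the 42.8 prior and 3 residual degrees of freedom, so a gene's spread is largely that of all genes. The procedure was tested on simulated data. Genes named from the lists were, for each comparison with DMSO, up to 3 called genes per list by adjusted p and any others are named as chosen after their values were seen. A few of the listed genes so named are not reported here. Alternatives were other scalings, filters and thresholds, DESeq2 1.42.0, limma 3.58.1 voom, fits restricted to the 2 groups at issue, a replicate block and each library left out. Figures were drawn with matplotlib 3.10.9.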

Additional observations from a re-analysis of the deposited data

Results flagged for a closer look

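Levels differed between 6 h and 2 h of WNK463 for 3 members and 13 named genes of the lists, by the edgeR test of these groups. Of all genes tested, 24.3% were called in that comparison. The named genes were picked for calls against DMSO in these same libraries, so their count is no result about the lists. With no DMSO group stated for each time, a changed effect of WNK463 and time in culture cannot be told apart. Among the members the log2 difference was 0.40 for FLCN, -0.36 for DDIT4 and -0.32 for RRAGD (adjusted p = 0.01004, 0.0110 and 0.00382). Without 6 h replicate 1 it was 0.25 for FLCN, -0.30 for DDIT4 and -0.32 for RRAGD. FLCN and RRAGD were not called against DMSO at either time, and their group means lay on opposite sides of DMSO at the 2 times.

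Of the listed genes, CTSB (0.66), SESN3 (0.41), FNIP2 (0.34), SQSTM1 (0.31), ATP6V0A1 (0.30), LAMP2 (0.25), LPIN1 (0.24) and GSK3B (0.23) were higher at 6 h than at 2 h. TELO2 (-0.59), EIF4EBP1 (-0.50), SEH1L (-0.42), LARP1 (-0.42) and MLST8 (-0.35) were lower. LPIN1, a lipid phosphatase that mTORC1 phosphorylates, had been called lower at 2 h against DMSO (-0.29, adjusted p = 0.000276). The largest adjusted p of these 13 was that of GSK3B, 0.0464, and the smallest that of CTSB, 3.28e-10.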

How the results depend on the processing

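No value of a member or named gene that was called reversed its sign. The call of DDIT4 at 2 h held under all 16 alternatives. Requiring a log2 change of at least 0.5 left 0 members and 2953 genes at 6 h against DMSO, 1264 genes at 2 h, and 0 members and 1455 genes at 6 h against 2 h. An adjusted p under 0.01 left 1560 genes at 2 h and 1 member at 6 h against 2 h. Scaling by library size alone gave 5 members at 6 h against 2 h (3 higher, 2 lower), RHEB among them (adjusted p = 0.0404). With each library left out, members called ranged from 2 to 3 at 6 h against DMSO, 1 to 2 at 2 h and 0 to 4 at 6 h against 2 h, 0 being without 6 h replicate 1. Genes called over the whole table ranged from 4021 to 5600, from 1527 (without 2 h replicate 2) to 2911, and from 2288 (without 6 h replicate 1) to 4661. Of 480 member values under alternatives, 459 kept their side of the threshold, 10 lost and 11 gained it.

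Over all genes tested, deviations of same-numbered libraries from their group means correlated at -0.0054 (2 h and DMSO), -0.038 (6 h and DMSO) and -0.021 (6 h and 2 h). With 2 libraries a group, these values cannot show whether same-numbered libraries were paired. A fit with the replicate number as a block called 3 members at 6 h, 1 at 2 h and 4 at 6 h against 2 h, and 5686, 2658 and 3807 genes. With 2 libraries a group, the SE of the members' 6 h log2 changes ran from 0.0648 (MTOR) to 0.140 (DEPTOR). A change larger than its SE could still go uncalled, as for RRAGD at 6 h (-0.17, SE 0.0861, adjusted p = 0.125 in edgeR's test). A member that was not called may therefore have changed by more than its SE. A DMSO library decided several 6 h values, and the cause was not tested.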

Other observations

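PRKAB1, a regulatory subunit of the energy-sensing kinase AMPK, had a log2 change of -0.52 at 2 h against DMSO (adjusted p = 0.00300 in edgeR's test), which was -0.46 without 2 h replicate 2 (adjusted p = 0.0710), and of -0.33 at 6 h (adjusted p = 0.0407). IRS2, an adaptor of insulin signalling upstream of PI3K, had 38.8 ± 0.982 CPM at 2 h, against 25.3 ± 2.88 with DMSO (SD, n = 2 each, log2 0.62, adjusted p = 0.000109).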
